A study of Mus musculus with 12 samples.

Results

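Smarca1, Nhsl2 and Heph are X-linked genes whose RNA from the 129 X chromosome fell steeply when Xist was switched on. They are 3 of the 242 genes, Xist aside, in a table of 243 genes with allelic ratios in mouse embryonic stem (mES) cells. They were selected on these same data, as genes with a large fall of the 129 share after doxycycline (Dox) in each of 6 clones. Their ratios before and after Dox are therefore given as a description, with no test. The allelic ratio is Xi/(Xi + Xa), where Xi is the 129 allele that is silenced and Xa is the Cast allele that stays active, so 0.5 means equal RNA from both alleles.

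In X inactivation, the non-coding RNA Xist coats the chromosome that transcribes it, and the genes of that chromosome are switched off over the following hours and days at different rates. A small number of genes, such as Kdm6a, escape and stay expressed from both X chromosomes. Smarca1 encodes SNF2L, an ATPase of the ISWI family that slides nucleosomes. Nhsl2 encodes a relative of the Nance-Horan syndrome protein, a family linked to regulation of the actin cytoskeleton. Heph encodes hephaestin, a multicopper ferroxidase that oxidises iron as it leaves cells such as those of the gut lining.

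Chromatin-associated RNA sequencing (ChrRNA-seq), which reads RNA still bound to chromatin, gave 12 libraries from 6 clones. Each clone was sampled without Dox (NoDox) and after 24 h of Dox at 1.0 µg/mL (Dox 24 h). All 6 are Cast × 129 hybrid lines in which a TetOn promoter drives Xist on the 129 allele only. Clone 2B was labelled wild type (WT), clones 3B and 4E carried a 153 bp deletion of the exon 7 m6A region of Xist, clones 6F and 11C a 355 bp deletion of the exon 1 m6A region, and clone 7E both deletions. WT and the double deletion were thus 1 clone each. The line table of the study gives clone 2B the exon 7 deletion on the Cast allele, which is not the induced one. It gives 3B and 4E this deletion on both alleles and 7E on the 129 allele only, and does not list clone 11C. The identity of the cells could not be checked against marker genes, because the values are ratios and not levels.

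Before the results, 2 clones need naming. The median NoDox ratio over the 242 genes was 0.796 in 4E and between 0.506 and 0.519 in the other 5 clones. The 6F Dox 24 h library listed 17 genes at exactly 0, against 0 to 2 genes in the other Dox 24 h libraries. The number of reads behind a ratio is unknown, so a ratio of 0 cannot be told apart from one resting on few reads. Xist itself had a 129 share of 0.911 to 1 in NoDox and 0.986 to 0.998 at Dox 24 h.

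All 3 genes are protein-coding and lie on chromosome X (mm10). Smarca1 spans 47809370 to 47892552 on the minus strand, and its transcript with the most exons in GENCODE M21 has 24. Heph spans 96455436 to 96574484 on the plus strand, with 22 exons, and holds 2 processed pseudogenes (Rpl17-ps8 and Gm14935) on its own strand, whose reads strand could not separate from those of Heph. Nhsl2 spans 101849385 to 102092055 on the plus strand, with 8 exons. On the opposite strand, Rtl5, Gm25828 and Gm27843 overlap Nhsl2 and Hsf3 overlaps Heph, which the stranded counting keeps apart. The 3 genes measured 83.2, 119 and 243 kb, against a median of 27.1 kb over the 242 genes. Nhsl2 lay 1.37 Mb from Xist, Heph 6.89 Mb and Smarca1 55.6 Mb, so Smarca1 lay far from Nhsl2 and Heph.

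RefSeq (GRCm38.p6) held a promoter sequence for 1 of the 3 genes, Smarca1. The 250 bases before its RefSeq start, at chrX:47892614-47892863, are shown because it was the gene with the largest fall. They run 5′ to 3′ on the minus strand with each CpG in capitals. They stop short of 47892552, where the span given above starts on this strand. In GENCODE M21, 2 Smarca1 transcripts start further upstream and have no exon over these bases, which lie in an intron of both.
Smarca1: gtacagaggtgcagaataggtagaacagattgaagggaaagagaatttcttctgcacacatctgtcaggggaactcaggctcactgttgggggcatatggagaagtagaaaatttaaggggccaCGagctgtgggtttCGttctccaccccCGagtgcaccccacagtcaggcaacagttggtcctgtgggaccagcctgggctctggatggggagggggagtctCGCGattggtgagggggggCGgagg
The stretch holds 6 CpGs, the median over 32851 mouse promoter windows of the same length. Over the 251 windows of 197 genes in the table the median was 11, and 78.5% of them held at least 6. A GC box (GGGCGG, both strands) occurred once, and 54.2% of the table's windows held at least 1. A CCAAT box (CCAAT, both strands) also occurred once, and 44.2% held at least 1. No TATAAA was found on either strand, and 7.57% of the table's windows held one. These matches describe the sequence only.

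Smarca1 had the largest mean fall of the 242 genes. Its ratio went from 0.667 to 0.172 in 2B, from 0.797 to 0.270 in 3B and from 0.976 to 0.587 in 4E. In 6F it went from 0.619 to 0, in 11C from 0.651 to 0.179 and in 7E from 0.487 to 0.238. Smarca1 thus started above 0.5 in 5 of 6 clones, and was biased towards the 129 allele before Xist was induced. The mean was 0.699 ± 0.168 (SD, n = 6) in NoDox and 0.241 ± 0.194 at Dox 24 h, a mean change of -0.459 ± 0.127. Its NoDox ratios did not overlap its Dox 24 h ratios once 4E, whose Dox 24 h ratio lay within the NoDox range of the others, was set aside.

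Nhsl2 fell from a nearly balanced start. Its ratio went from 0.520 to 0.165 in 2B, from 0.481 to 0.210 in 3B and from 0.615 to 0.305 in 4E. In 6F it went from 0.634 to 0.0847, in 11C from 0.448 to 0.0949 and in 7E from 0.500 to 0.164. Every NoDox ratio lay above every Dox 24 h ratio, 4E included, which was so for neither Smarca1 nor Heph. The mean was 0.533 ± 0.0751 in NoDox and 0.171 ± 0.0811 at Dox 24 h, a mean change of -0.362 ± 0.0968 (SD, n = 6). Nhsl2 was also the most even of the 3 genes across clones, on the ratio and on the change alike.

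Heph reached the lowest mean ratio of the 3 genes. It went from 0.322 to 0.0600 in 2B, from 0.569 to 0.140 in 3B and from 0.745 to 0.528 in 4E. In 6F it went from 0.519 to 0, in 11C from 0.493 to 0.0377 and in 7E from 0.294 to 0.143. Apart from 4E, no Dox 24 h ratio exceeded 0.143. The mean was 0.490 ± 0.167 in NoDox and 0.151 ± 0.193 at Dox 24 h, a mean change of -0.339 ± 0.148 (SD, n = 6). In 2B and 7E, Heph also had the lowest NoDox ratios of the 6 clones, with the smallest fall in 7E.

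The 3 genes were measured in the same clones, so they were also compared within each. At Dox 24 h the ratio of Smarca1 less that of Heph averaged 0.0894 ± 0.0523 (SD of the paired differences, n = 6), higher in 5 clones and equal in 6F, where both were 0. Smarca1 less Nhsl2 averaged 0.0703 ± 0.121 and Nhsl2 less Heph 0.0191 ± 0.122, each higher in 5 clones and lower in 1. The change of Smarca1 was lower than that of Heph in 6 of 6 clones, with a mean difference of -0.120 ± 0.0738. In change, Smarca1 less Nhsl2 averaged -0.0961 ± 0.111 and was lower in 5 clones. Nhsl2 less Heph averaged -0.0236 ± 0.129 and was lower in 4. The same values chose the genes, so these differences are a description and were not tested.

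**Figure D1:**
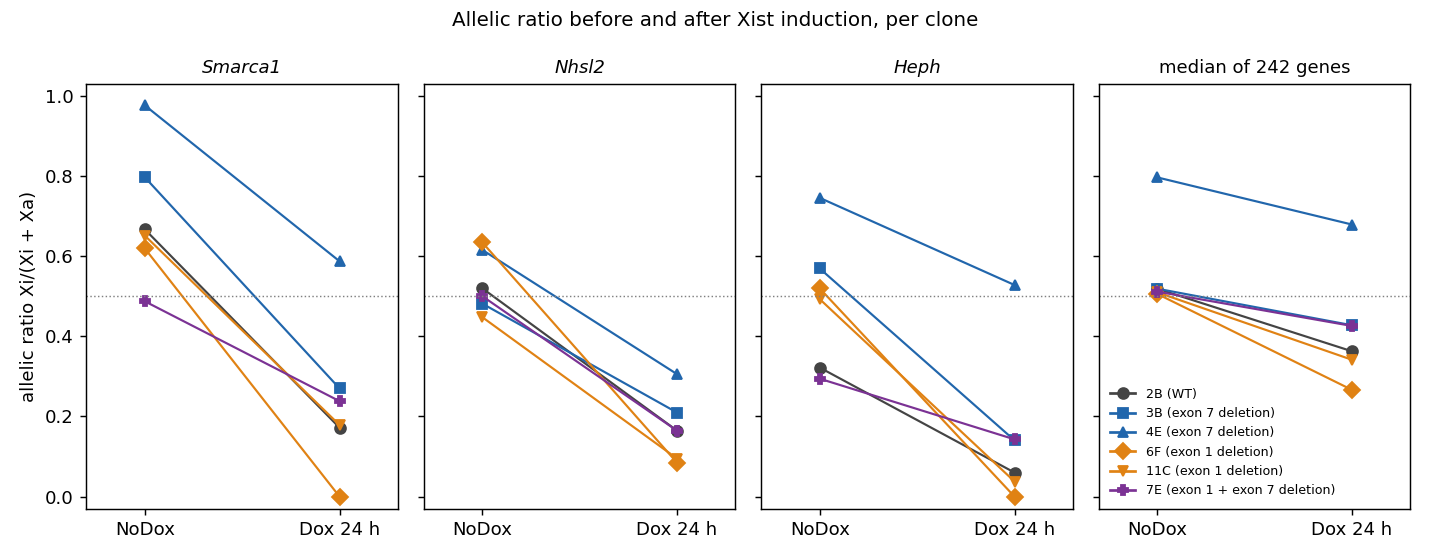
Allelic ratio Xi/(Xi + Xa) (vertical axis, 0 to 1) in NoDox and Dox 24 h libraries, 1 line per clone, for the 3 genes and for the median of 242 genes. Every line falls, Smarca1 starts at 0.619 or above in all clones but 7E, and 4E ends above all other clones for each gene.

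The falls of the 3 genes exceeded that of the typical gene in each clone. The median change over 242 genes was -0.153 in 2B, -0.0861 in 3B, -0.107 in 4E, -0.225 in 6F, -0.159 in 11C and -0.0842 in 7E. Relative to these medians, the mean change was -0.323 ± 0.0959 for Smarca1, -0.227 ± 0.0529 for Nhsl2 and -0.203 ± 0.120 for Heph (SD, n = 6). The smallest excess was -0.165 for Smarca1 (7E), -0.186 for Nhsl2 (3B) and -0.0670 for Heph (7E). Across all genes, 173 of 242 (71.5%) were lower at Dox 24 h by limma with an adjusted p under 0.05, and 149 (61.6%) were lower in all 6 clones. The 3 genes were among both sets, which their selection fixed.

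The rank of the genes within a clone moved with the library. By change, Smarca1 ranked between 1st and 11th of 242 in each clone, Nhsl2 between 3rd and 17th, and Heph between 4th and 56th. Heph was in place 34 in 2B, 43 in 4E and 56 in 7E. Scale mattered as well. By mean change in ratio the order was Smarca1, Nhsl2, Heph in places 1, 2 and 3, whereas by the share of the NoDox ratio kept, over 240 genes with a NoDox ratio above 0 throughout, Heph came first, Nhsl2 in place 3 and Smarca1 in place 4. On the log2 odds scale they took places 2 (Heph), 7 (Nhsl2) and 1 (Smarca1). Just outside them, among genes that fell in all clones, was the creatine transporter gene Slc6a8 at -0.308 ± 0.210 (SD, n = 6), close to the -0.339 of Heph. L1cam had a mean change of -0.327 but fell in only 5 clones. Without 4E and 6F the mean changes were -0.436, -0.329 and -0.324 for Smarca1, Nhsl2 and Heph.

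**Figure D2:**
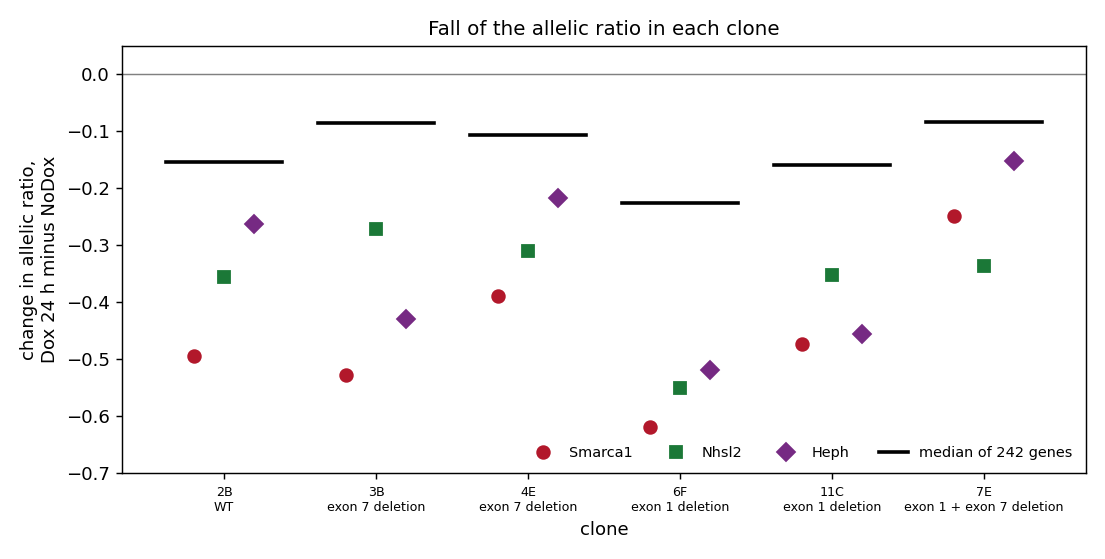
Change in allelic ratio (Dox 24 h minus NoDox, vertical axis) of Smarca1, Nhsl2 and Heph in each of 6 clones, with the median of 242 genes as a bar. All 18 points lie below the bar of their clone, and Heph in 7E lies nearest to it, at -0.0670 from it.

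The 3 genes, selected for large falls, had the 3 largest mean falls of the 242 genes. Any neighbour therefore had to fall less on average, and the comparison below is a description and no test of the region. Genes of the table within 2 Mb of each gene were set beside it by position only. Smarca1 had 11 such genes, all on its higher-coordinate side, and 10 of the 11 were lower at Dox 24 h by limma with an adjusted p under 0.05, beside 71.5% of all 242 genes. Their median change was -0.156, near the -0.132 over all genes. Ocrl, a phosphoinositide phosphatase gene 0.0199 Mb away, changed by -0.132 ± 0.0729 (SD, n = 6). The lowest neighbour, the aminopeptidase gene Xpnpep2, changed by -0.212 ± 0.173, and the highest, Utp14a, a ribosome biogenesis gene known to escape, by -0.0755 ± 0.0498. Zdhhc9, a palmitoyltransferase gene, was the one that missed the threshold, at -0.0816 ± 0.105. Smarca1 fell further than all 11 neighbours in each of the 6 clones.

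Nhsl2 lies in a dense stretch with 25 other genes of the table, of which 21 were lower (71.5% of all genes were), with a median change of -0.163. Pin4, a peptidyl-prolyl isomerase gene 0.0274 Mb away, changed by -0.0749 ± 0.122 (SD, n = 6) and missed the threshold, as did Foxo4, Taf1 and Nap1l2. Ogt, which encodes the O-GlcNAc transferase, lies 0.165 Mb from Nhsl2 and changed by -0.0666 ± 0.0333. The neighbour nearest to Nhsl2 in size was Phka1, a phosphorylase kinase subunit gene 0.422 Mb away, at -0.287 ± 0.0536. Nhsl2 fell further than all 25 neighbours in 5 of 6 clones, the exception being 4E, where it was in place 3.

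Heph stood apart least. Of its 12 neighbours 9 were lower, a share near the 71.5% of all genes, with a median of -0.193, and Gspt2, Spin4 and Zc4h2 missed the threshold. Msn, the gene for the membrane-actin linker moesin, lies 0.287 Mb away and changed by -0.235 ± 0.0602 (SD, n = 6). The ectodysplasin A2 receptor gene Eda2r, at 0.759 Mb, changed by only -0.0652 ± 0.0296. Heph fell further than all 12 in 3B, 6F and 11C. In 4E it was in place 7 and its change less the median of its neighbours was -0.00520.

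**Figure D3:**
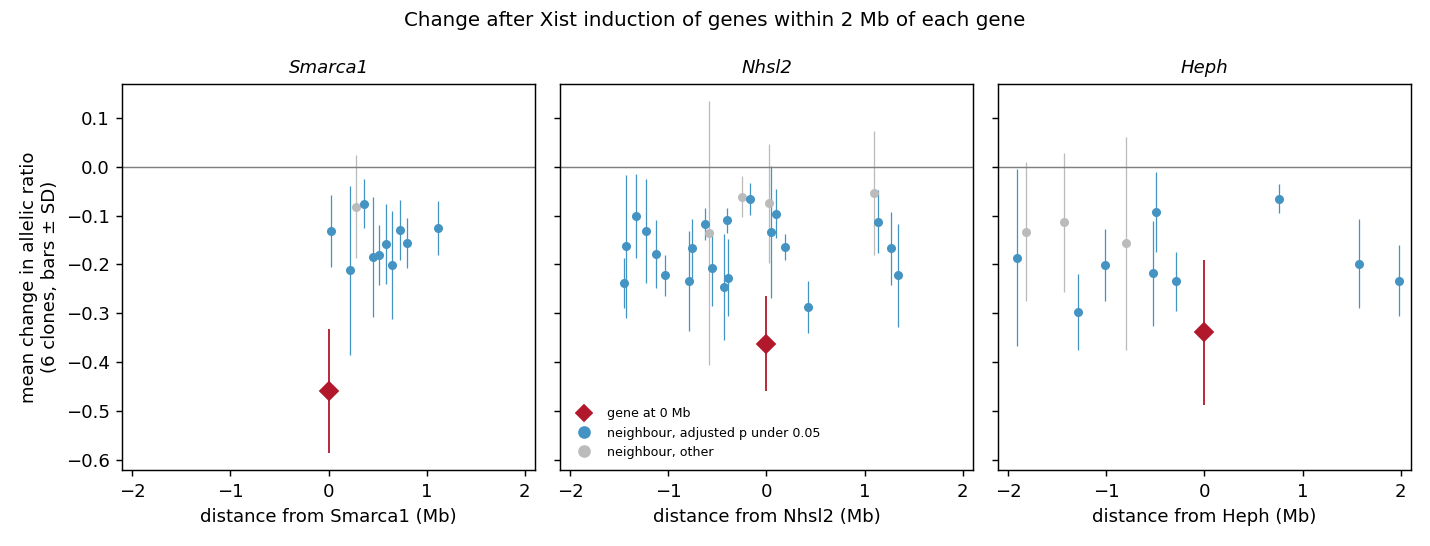
Mean change in allelic ratio over 6 clones (vertical axis, bars ± SD) of genes within 2 Mb, against their distance from Smarca1, Nhsl2 or Heph (Mb). Smarca1 lies well below its 11 neighbours (-0.459 against a lowest neighbour of -0.212), while the SD bar of Heph spans several of its own. The place of each gene below the means of its neighbours was fixed by its selection for a large fall.

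The pattern over all 12 libraries was matched to other genes by the root mean square (RMS) difference in ratio. This measure uses the values that chose the genes and describes them only. Closest to Smarca1 were the zinc finger gene Zfp300 (0.117), the long non-coding RNA gene Firre (0.125) and Arhgap4 (0.126), against a median RMS difference of 0.205 over all genes. Closest to Nhsl2 were the actin-bundling gene Pls3 (0.0854), Phka1 (0.0858) and Eda (0.0908), with a median of 0.213. Closest to Heph were Pls3 (0.0900), Nr0b1 (0.100) and Kis2 (0.101), with a median of 0.229. Nhsl2 and Heph differed from each other by 0.128, and Smarca1 from them by 0.181 and 0.173.

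The clones also allow a comparison between those with the exon 7 region deleted (3B, 4E and 7E) and those with it intact (2B, 6F and 11C). The genes were not chosen by the difference between these arms, but they were chosen for large falls in every clone, and the same 18 changes enter here, so these tests are not independent of the selection. The fall in ratio was smaller with the deletion by 0.167 (limma SE 0.0874, adjusted p = 0.414) for Smarca1, 0.0899 (SE 0.0655, adjusted p = 0.479) for Nhsl2 and 0.137 (SE 0.114, adjusted p = 0.527) for Heph. None passed the threshold, and 0 of 242 genes (0%) did so in this fit, with 38 at an unadjusted p under 0.05. The median of this term over all genes was 0.0775. Without clone 7E the effect was -0.0611 for Heph and 0.0369 for Smarca1, and without 6F it was 0.0441 for Nhsl2.

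By the change itself, only Nhsl2 had arms that did not overlap. Its change ranged from -0.336 to -0.272 in deleted clones and from -0.550 to -0.353 in intact ones (exact two-sided permutation p = 0.1, the smallest that 3 against 3 allows). Of all genes, 78 of 242 (32.2%) showed that separation. Measured relative to the median of each clone, the difference for Nhsl2 was 0.0268 (exact permutation p = 0.7), for Smarca1 0.0540 (p = 0.6) and for Heph 0.0597 (p = 0.9), and the arms of all 3 genes overlapped. On that measure only 20 of 242 genes were separated with a smaller fall in deleted clones, so overlap was the common outcome.

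The share of the NoDox ratio kept at 24 h expresses the fall relative to the starting ratio of each clone. Smarca1 kept 33.9% in 3B, 60.1% in 4E and 48.9% in 7E, against 25.8% in 2B, 0% in 6F and 27.4% in 11C. Nhsl2 kept 43.5%, 49.6% and 32.9% in the deleted clones, against 31.7%, 13.3% and 21.2% in the intact ones. Heph kept 24.7%, 70.8% and 48.6%, against 18.6%, 0% and 7.66%. For all 3 genes each deleted clone lay above each intact clone (exact two-sided permutation p = 0.1 each, the smallest possible), by 29.9, 19.9 and 39.3 percentage points on average for Smarca1, Nhsl2 and Heph. The gap between the arms was 6.45 points for Smarca1, 1.21 for Nhsl2 and 6.02 for Heph. Over the table, 116 of 240 genes (48.3%) were separated in this way, so this is a common pattern here and not one particular to these genes. The separation of all 3 genes also depended on the scale. By the change in log2 odds, the arms overlapped for Smarca1 and Heph (exact two-sided permutation p = 0.7 and p = 0.2). Those of Nhsl2 did not overlap (exact two-sided permutation p = 0.1). The share of all genes separated on the log2 odds scale was not counted. In 4E, Smarca1 kept 60.1%, its largest share, yet its log2 odds changed by -4.83, exceeded only in 6F (-7.33).

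Clones 4E and 6F, which stood apart above, held the highest and lowest shares of each gene. Arms that do not overlap stay apart when clones are left out. Leaving out both therefore could not change the result for the 3 genes and is no check of it. Without both, 148 of 240 genes (61.7%) were separated, with fewer clones per arm to keep apart. The Dox 24 h ratio alone was higher in every deleted clone for Smarca1 and Heph, but not for Nhsl2, where 7E (0.164) lay just under 2B (0.165), and 137 of 242 genes (56.6%) were separated on that measure.

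**Figure D4:**
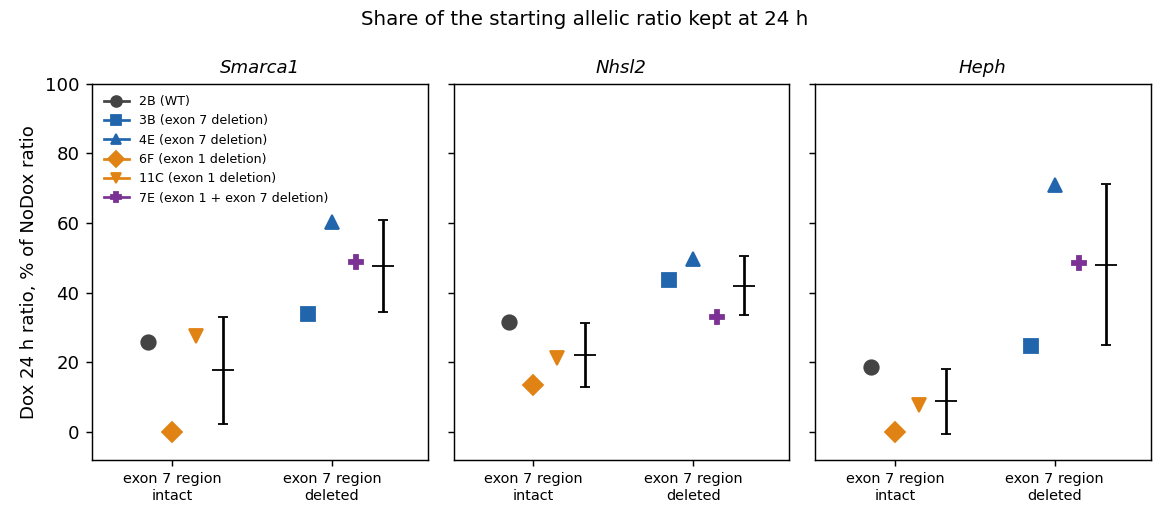
Dox 24 h ratio as a percentage of the NoDox ratio (vertical axis) in clones with the exon 7 region of Xist intact or deleted, with 1 point per clone and the mean ± SD (n = 3) beside them. Deleted clones lie above intact ones for each gene, with the smallest gap, 1.21 points, for Nhsl2.

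For the exon 1 region, the fitted difference between deleted (6F, 11C and 7E) and intact clones (2B, 3B and 4E) in the change was 0.0789 (limma SE 0.0874) for Smarca1, -0.0704 (SE 0.0655) for Nhsl2 and -0.0267 (SE 0.114) for Heph, each with an adjusted p of 0.985. By the change, the arms overlapped for all 3 genes, and 17 of 242 genes (7.02%) had arms that did not. The Dox 24 h ratio of Nhsl2 was 0.0847 to 0.164 in deleted clones and 0.165 to 0.305 in intact ones. The NoDox ratio of Smarca1 was 0.487 to 0.651 against 0.667 to 0.976. Neither pair of arms overlapped (exact two-sided permutation p = 0.1 each, the smallest possible). These 2 are named because they did not overlap, and on all other measures compared the exon 1 arms of the 3 genes overlapped. The share of all genes separated on these 2 measures was not counted, so neither can be called particular to these genes. The sign of the fitted difference for Smarca1 and Heph changed with the clones that entered. Smarca1 stood at -0.0510 without 7E, and Heph at 0.172 without 2B and 0.0154 without 6F. The double deletion clone 7E kept more of the NoDox ratio of all 3 genes than 2B, 6F or 11C, but it is a single clone, and its difference from the exon 7 deletion clones was not tested.

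X-linked genes of related function, on lists drawn up by function, were set beside Smarca1 and Heph. Of 19 chromatin and transcription regulators in the table, the list for Smarca1, 14 were lower at Dox 24 h and 0 higher, with a median change of -0.110. Over all genes 71.5% were lower, a share near that of the list, and the median change was -0.132. Zmym3 fell most, by 0.246 ± 0.109 (SD, n = 6), whereas the histone demethylase gene Kdm6a, an escape gene, changed by -0.0140 ± 0.0313 and missed the threshold. Smarca1, at -0.459, lay below all 19, which its selection for a large fall fixed. Of 11 genes for metal and ion transport, haem and redox, the list for Heph, 7 were lower (71.5% of all genes were), with a median of -0.134. Pgrmc1, a haem-binding protein gene, fell by 0.173 ± 0.151, and Slc25a5, a mitochondrial ADP/ATP carrier gene, was at 0.0177 ± 0.0469. Of 4 known escape genes 3 were lower, again near the 71.5% of all genes, with a median of -0.0663, the smallest of the lists.

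**Figure D5:**
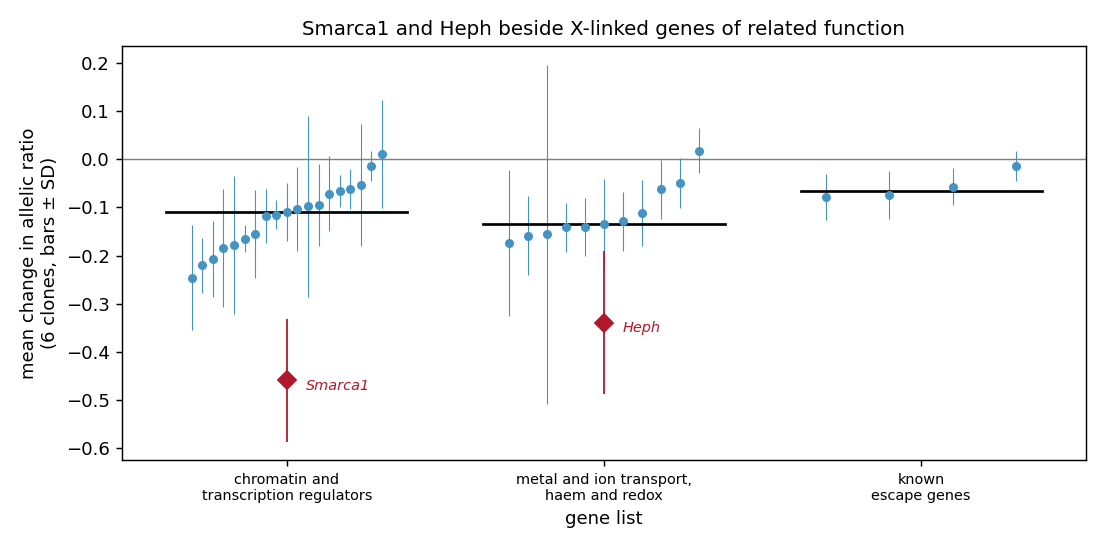
Mean change in allelic ratio over 6 clones (vertical axis, bars ± SD) of genes on 3 functional lists, with the list median as a line and Smarca1 and Heph as diamonds at their related list. Both diamonds lie below all points of their list, which the selection of these genes for large falls fixed. The escape genes have the median nearest to 0, -0.0663.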

How the data were processed

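The authors deposited 1 table of fractions, the allelic ratio Xi/(Xi + Xa) per gene and library. Per the methods, rRNA reads were removed (bowtie2), the rest aligned to N-masked mm10 (STAR), split by allele (SNPsplit) and counted per gene by strand (featureCounts), and genes below a minimum of SNP-covering reads were left out. The ratios carry no read counts, so depth is unknown and no interval is given.

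Groups came from the labels and pairs from the clone names in the titles. A further 10 per-sample columns (6 with headers starting WT, 4 naming 11C with a Rep number) matched no sample title and were not used here. They played no part in selecting the 3 genes, and a check of the genes in them was not done. Gene starts were printed after adding 1. The change (Dox 24 h minus NoDox) per clone was fitted over 242 genes with limma 3.58.1 in R 4.3.3, with both deletions as additive terms and Benjamini-Hochberg adjustment at 0.05, and the clone was the replicate. The study used a paired test over genes, which was not followed. P-values measure the spread between clones, each a single line. Fits were tested on simulated data. Log2 odds used ratios held between 0.01 and 0.99. Other steps used Python 3.11.15 (scipy 1.17.1). Genes named were Smarca1, Nhsl2 and Heph, genes within 2 Mb (gap between gene ends), the 3 nearest by RMS difference, the next gene by fall, and list members. L1cam was added after its value was seen. The 3 genes and all lists were chosen with earlier results of these data known. Alternatives changed the scale, centring, baseline, window, block or clones. Results of 1 gene list and 1 neighbouring gene are not reported here.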

Additional observations from a re-analysis of the deposited data

Results flagged for a closer look

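In 12 sets of 6 clones (4 measures of each of the 3 genes), a clone far from the other 5 by Dixon's test at the 95% level was found in 2. For 12 sets of unselected replicates, chance gives about 0.6. That count does not carry over here, because the same values chose the genes and the 4 measures are computed from one another. The flags are a description only. The clones differ in genotype, so the sets are not replicates of 1 group. The change of Nhsl2 in 6F was -0.550, and the nearest other clone was 2B at -0.355. Relative to the median of each clone the 6F value of Nhsl2 was -0.324, and it was then no longer far from the rest. The Dox 24 h ratio of Heph in 4E was 0.528, against 0.143 in 7E, the next highest. In 4E the median ratio over all genes was also the highest at Dox 24 h, 0.679 against 0.427 in 3B. The part of the 4E baseline in the Heph value was not tested.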

How the results depend on the processing

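The mean falls of the 3 genes kept their sign under each alternative run. Centred on the median of each clone they were smaller, -0.323 for Smarca1 and -0.227 for Nhsl2. With 1 clone left out they ranged from -0.500 to -0.426 for Smarca1, -0.381 to -0.325 for Nhsl2 and -0.376 to -0.303 for Heph. No exon 7 or exon 1 effect passed the threshold under any alternative. The exon 7 effect on Heph ranged from -0.0611 (without 7E) to 0.336 with 1 clone left out, and those on Smarca1 and Nhsl2 from 0.0369 to 0.297 and 0.0441 to 0.128. Centring lowered the Nhsl2 effect from 0.0899 to 0.00780. The exon 1 effect on Smarca1 ranged from -0.0510 to 0.209 with 1 clone left out, and was -0.94 on log2(ratio + 0.01) and -0.136 with a common NoDox baseline. That on Heph ranged from -0.225 to 0.172, and was 0.0422 without 4E and 6F. The adjusted p of the exon 7 effects ranged from 0.227 to 0.981. The number of genes lowered by Dox was 111 with a common NoDox baseline, and 17 without the replicate block that pairs the libraries of a clone. It was 138 to 166 with 1 clone left out. Within 1 Mb, 12 of 15 neighbours of Nhsl2 and 4 of 5 of Heph were lower, fewer because the window holds fewer genes. Depth is unknown, so a ratio of 0 in 6F has no error, and 6 clones in 4 genotypes limit what can be resolved.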
